A study of Mus musculus with 19 samples.

Results

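The genes described are Socs1, Socs2, Socs3, Cish, Jak1, Jak2, Stat3, Pim1 and Pim3, chosen by name for their place in cytokine signalling. They are 9 of the 56941 genes in tables of lavage-cell expression from 19 female mice aged 7 to 8 weeks. ICAM-1 null exposed mice (n = 5) and wild type exposed mice (n = 5, C57Bl/6J) had aspirated 100 µL of Staphylococcus aureus pHrodo bioparticles (2.27 mg/mL) by the oropharyngeal route during isoflurane anaesthesia, 1 h before lavage. ICAM-1 null naive mice (n = 5) and wild type naive mice (n = 4, C57Bl/6J) had no bioparticles. All 19 pellets were labelled alveolar macrophages, which are phagocytes that live in the air spaces, were rinsed out with buffered saline holding 2 mM EDTA, and no sort or gate is described. ICAM-1 is an adhesion molecule that leukocyte integrins bind. The strain background of the null line, and whether naive mice received a vehicle or anaesthetic, could not be taken from the labels. The loss of ICAM-1 and other differences between the lines therefore cannot be told apart. Nor can the bioparticles be told apart from the aspirated volume and the anaesthetic where exposed mice are compared with naive mice.

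Cytokines such as interleukin-6 and GM-CSF bind receptor chains that carry Janus kinases, the JAK proteins. The kinases phosphorylate STAT proteins, which enter the nucleus and switch on target genes. Several targets feed back on the same pathway: SOCS proteins and CISH bind activated receptors or kinases through an SH2 domain and recruit a ubiquitin ligase through their SOCS box. The PIM proteins are serine/threonine kinases that need no activating phosphorylation, so that their activity largely follows their amount in the cell. That amount depends on transcription and turnover. In alveolar macrophages GM-CSF, acting through JAK2 and STAT5, maintains the cells, and STAT3 carries the signals of interleukin-6 and interleukin-10.

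Libraries summed to between 32.8 and 80.3 M estimated counts, with medians of 59.6 M in ICAM-1 null exposed, 53.4 M in wild type exposed, 68.2 M in ICAM-1 null naive and 39.0 M in wild type naive libraries. Icam1 itself averaged 10.8 ± 1.59 TPM in ICAM-1 null exposed and 899 ± 155 TPM in wild type exposed libraries, and 8.13 ± 2.63 TPM in ICAM-1 null naive and 74.6 ± 10.7 TPM in wild type naive libraries (SD). All 17 markers of alveolar macrophages were present, with a summed level of 36120 to 40720 TPM in ICAM-1 null exposed, 33420 to 39250 TPM in wild type exposed, 35410 to 37410 TPM in ICAM-1 null naive and 30420 to 34980 TPM in wild type naive libraries. Chil3 led that sum in every group, and single markers were less alike. Marco averaged 1963 and 589 TPM in ICAM-1 null and wild type exposed libraries, and 1844 and 478 TPM in naive ones. From naive to exposed libraries, mean Plet1 went from 1642 to 7436 TPM in ICAM-1 null and from 1203 to 4695 TPM in wild type mice. Mean Siglecf went from 237.6 to 139.8 TPM and from 304.2 to 186 TPM. TPM is an abundance that the authors scaled for transcript length and library size. Tests ran on the estimated counts in edgeR with TMM scaling over all 20501 genes that passed a filter on low counts, and the words rise, fall and differ are kept for a Benjamini-Hochberg adjusted p under 0.05. All 9 genes passed the filter. The median gene moved on exposure by 0.02 (log2) on the count scale in either genotype, but on the log2(TPM + 1) scale by -0.32 in ICAM-1 null and -0.34 in wild type mice. Small changes on exposure are therefore relative to the scaling.

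The promoters of Socs3, Cish and Pim3 are shown as 3 of the 4 genes that rose in both genotypes and whose sequences hold a match to one of the motifs searched. The fourth, Jak1, changed least of them and is described without its sequence. Each line is 300 bases around the start of transcription from RefSeq (GRCm38.p6), 5′ to 3′ on the gene's own strand, with the match in capitals. Counted from the start as position 1, Socs3 (chr11:117969317-117969616, minus strand) matched the STAT motif TTCNNNGAA at -154, and Cish (chr9:107296409-107296708, plus strand) matched it at 1 and again at 12. Pim3 (chr15:88861944-88862243, plus strand) matched the NF-kB consensus on the reverse strand at -136.
Socs3: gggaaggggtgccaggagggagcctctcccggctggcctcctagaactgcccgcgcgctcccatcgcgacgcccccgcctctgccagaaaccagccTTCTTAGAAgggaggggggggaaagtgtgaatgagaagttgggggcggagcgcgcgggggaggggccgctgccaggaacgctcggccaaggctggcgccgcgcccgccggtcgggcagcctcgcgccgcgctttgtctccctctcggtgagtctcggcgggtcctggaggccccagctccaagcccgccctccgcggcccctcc
Cish: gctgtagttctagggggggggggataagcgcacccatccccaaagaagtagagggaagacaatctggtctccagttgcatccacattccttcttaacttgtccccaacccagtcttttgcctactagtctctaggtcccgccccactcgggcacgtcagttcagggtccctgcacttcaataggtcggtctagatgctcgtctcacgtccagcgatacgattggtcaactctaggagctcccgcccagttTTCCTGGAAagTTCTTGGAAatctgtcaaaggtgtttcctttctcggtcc
Pim3: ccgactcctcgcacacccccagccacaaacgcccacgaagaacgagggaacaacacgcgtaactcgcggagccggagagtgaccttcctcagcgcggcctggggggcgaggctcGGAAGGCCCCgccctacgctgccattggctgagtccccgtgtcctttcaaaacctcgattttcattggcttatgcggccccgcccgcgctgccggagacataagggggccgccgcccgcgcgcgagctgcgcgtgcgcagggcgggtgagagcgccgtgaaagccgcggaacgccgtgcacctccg
Of 32817 promoters of the same length, 8.29% held the STAT motif and 8.46% the NF-kB consensus. Jak1 matched the cAMP response element TGACGTCA at -101, a motif that 1.79% of promoters held. Neither the AP-1 motif TGANTCA (7.81% of promoters) nor the CArG box (1.63%) was found in any of the promoters matched, and those of Socs1, Stat3, Jak2 and Pim1 held none of the 5 motifs. Both strands were searched, and 8 of the 9 genes were matched to a promoter. A match is a run of letters and was not tested as a binding site.

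Exposure to bioparticles was followed within 1 h by higher transcript levels of 8 of the 9 genes, Stat3 among them on the count scale alone, and a lower level of 1 gene, Socs2, in both genotypes. In ICAM-1 null mice, 21.4% of all genes tested rose and 23.4% fell. In wild type mice, 20.1% rose and 20.2% fell. Higher genes thus made up 47.8% of those called in ICAM-1 null and 49.9% in wild type mice, against 20.0% and 19.1% with limma on log2(TPM + 1). The changes were largest for Socs3 and smallest for Stat3. The ICAM-1 null and wild type comparisons each used their own naive group.

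**Figure D1:**
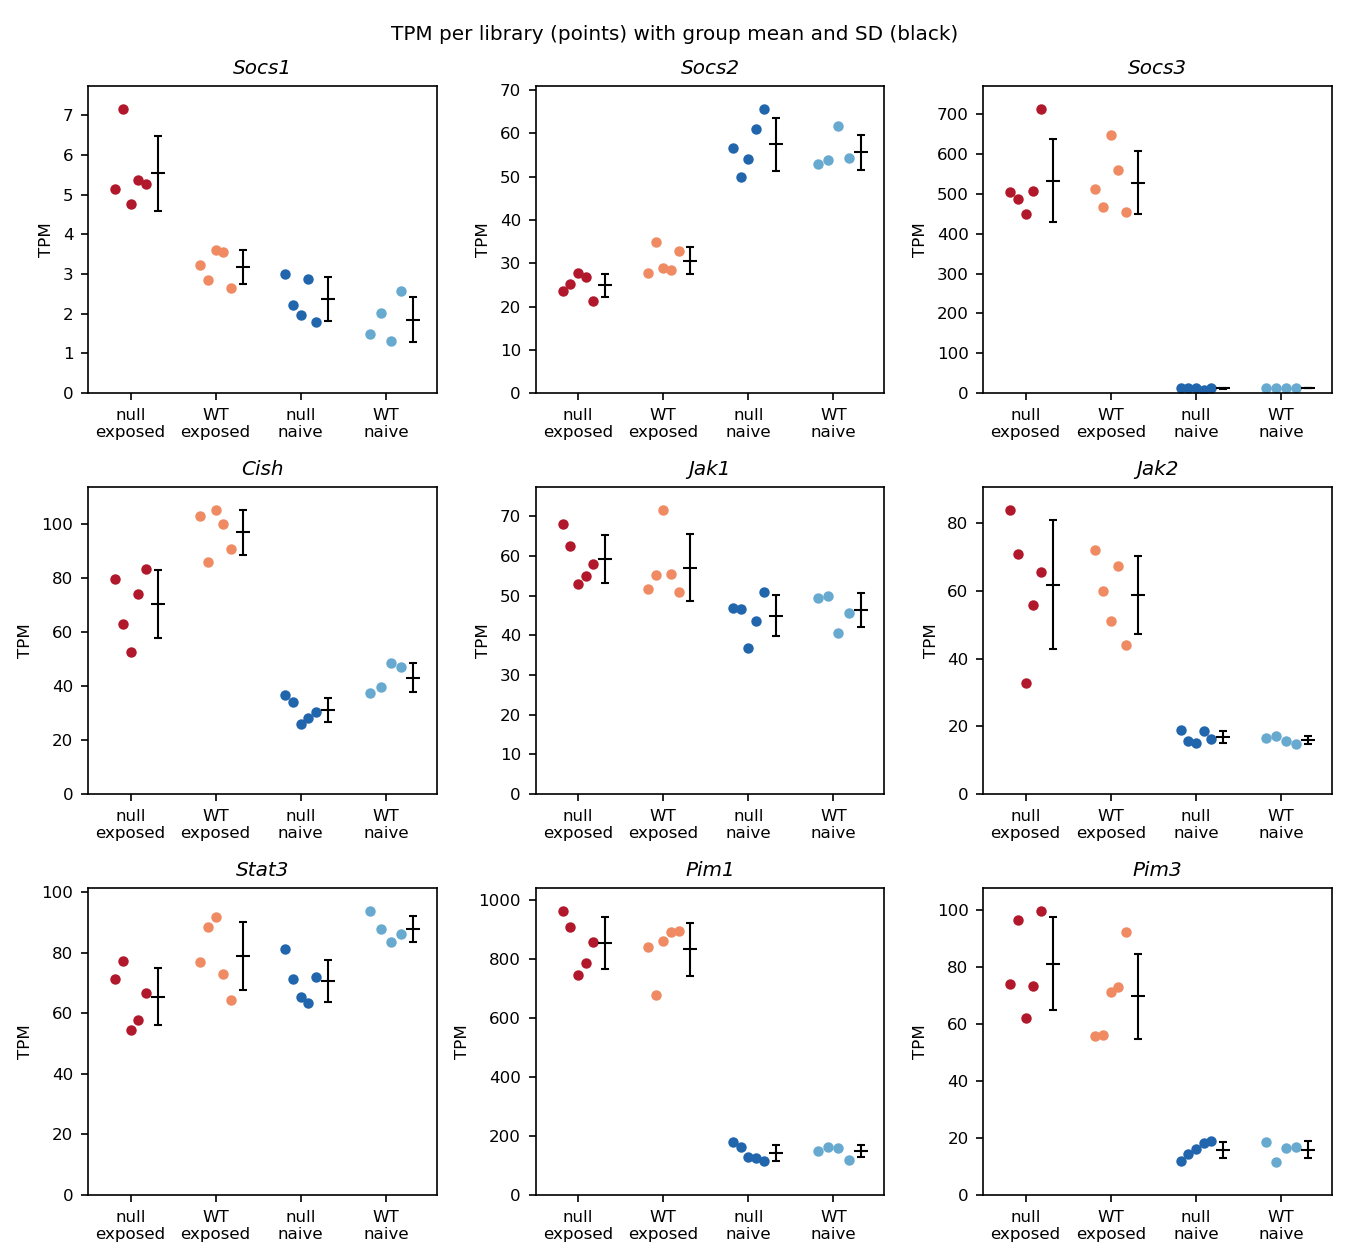
TPM of the 9 genes in each of the 19 libraries, with 1 panel per gene, linear axes from 0, and groups on the horizontal axis (WT, wild type). Points are libraries and the black bar is the group mean with its SD. For Socs3, Cish, Jak2, Pim1 and Pim3 every exposed library lies above every naive library of both genotypes, and for Socs2 every exposed library lies below. Jak1 also separates, but barely: wild type exposed library 5 is at 50.98 TPM and ICAM-1 null naive library 5 at 50.83 TPM. The share of all genes that separate in this way was not counted.

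Socs3 (ENSMUSG00000053113.4, chromosome 11, 117856905 to 117860873, minus strand, GRCm39) encodes the inhibitor that blocks JAKs on receptors of the interleukin-6 family and is a direct STAT3 target. It stood at 505, 488, 450, 508 and 714 TPM in ICAM-1 null exposed libraries, against 13.5, 12.6, 12.0, 7.55 and 11.6 TPM in ICAM-1 null naive libraries. Wild type exposed libraries held 513, 466, 648, 560 and 454 TPM, against 12.4, 12.7, 13.4 and 11.9 TPM in wild type naive libraries. Exposed and naive libraries were far apart, and the order among exposed mice did not follow genotype. On the log2 scale Socs3 rose by 5.90 (SE 0.16, 59.75-fold, adjusted p = 5.7e-17) in ICAM-1 null and 5.81 (SE 0.18, 55.95-fold, adjusted p = 4.75e-16) in wild type mice. By this log2 fold change it ranked 131 and 192 from the top of the 20501 genes. ICAM-1 null naive library 4 (7.55 TPM) was the lowest and ICAM-1 null exposed library 5 (714 TPM) the highest of all.

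Cish (ENSMUSG00000032578.8, chromosome 9, 107173225 to 107179983, plus strand) encodes a SOCS-box protein that is induced by STAT5. Its level was 79.7, 62.9, 52.7, 74.0 and 83.4 TPM in ICAM-1 null exposed and 36.7, 34.3, 25.8, 28.3 and 30.6 TPM in ICAM-1 null naive libraries. For wild type the values were 103, 85.9, 105, 100 and 90.8 TPM after exposure and 37.3, 39.6, 48.5 and 47.0 TPM in naive mice. All 10 exposed libraries were above all 9 naive libraries. Within each condition all ICAM-1 null libraries were below all wild type libraries in TPM, though not in TMM-scaled CPM. The exposure response of Cish, as a log2 fold change, was 1.63 (SE 0.13, adjusted p = 1.22e-09) in ICAM-1 null and 1.61 (SE 0.14, adjusted p = 6.78e-09) in wild type mice (3.10-fold and 3.06-fold).

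Socs1 (ENSMUSG00000038037.6, chromosome 16, 10600104 to 10603400, minus strand), which restrains interferon signalling by inhibiting JAK1, JAK2 and TYK2, was the lowest of the 9 genes in every group. It measured 5.14, 7.16, 4.75, 5.36 and 5.26 TPM in ICAM-1 null exposed and 3.01, 2.21, 1.96, 2.87 and 1.80 TPM in ICAM-1 null naive libraries. Wild type libraries had 3.23, 2.85, 3.6, 3.54 and 2.65 TPM after exposure and 1.49, 2.01, 1.32 and 2.58 TPM without it. Exposed libraries were above naive ones within each genotype, and all 5 ICAM-1 null exposed libraries were above every other library. These levels rested on 71 to 706 estimated counts per library. The rise of Socs1 was 1.55 on the log2 scale (SE 0.19, adjusted p = 8.12e-07) in ICAM-1 null and 1.14 (SE 0.21, adjusted p = 0.000138) in wild type mice. On the log2(TPM + 1) scale, where a pseudocount shrinks low genes, the change was 0.96 in ICAM-1 null and 0.57 in wild type mice (limma, adjusted p = 7.24e-06 and 0.00318). Without wild type naive libraries 1, 2 and 3, the shallowest of the series, the change in wild type mice was 0.63 and did not pass (edgeR, adjusted p = 0.171).

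Socs2 (ENSMUSG00000020027.19, chromosome 10, 95221224 to 95253042, minus strand), known for restraining growth hormone signalling and a STAT5 target, went the other way. ICAM-1 null exposed libraries held 23.5, 25.2, 27.8, 26.9 and 21.2 TPM, against 56.6, 49.9, 54.1, 61.1 and 65.7 TPM in ICAM-1 null naive libraries. Wild type libraries held 27.8, 34.9, 28.9, 28.4 and 32.8 TPM after exposure and 52.9, 53.8, 61.7 and 54.3 TPM in naive libraries. No exposed library reached the lowest naive library of its genotype. Socs2 fell by 0.79 on the log2 scale (SE 0.10, adjusted p = 1.31e-06) in ICAM-1 null and by 0.50 (SE 0.11, adjusted p = 0.000649) in wild type mice. On the log2(TPM + 1) scale it fell by 1.17 and by 0.85. The groups were also apart in TMM-scaled CPM, with 27.6 to 35.9 in ICAM-1 null exposed and 48.6 to 62.8 in ICAM-1 null naive libraries, and 34.0 to 42.8 in wild type exposed and 46.3 to 61.9 in wild type naive libraries.

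These changes altered the make-up of the 4 SOCS-family transcripts. The summed TPM of Socs1, Socs2, Socs3 and Cish was 634 ± 111 in ICAM-1 null exposed and 102 ± 7.03 in ICAM-1 null naive libraries, and 659 ± 84.0 in wild type exposed and 113 ± 9.17 in wild type naive libraries (SD). Socs3 held 82.3 to 86.7% of that sum in ICAM-1 null exposed libraries, against 7.56 to 12.8% in ICAM-1 null naive libraries. Its share was 78.2 to 82.5% in wild type exposed and 10.3 to 11.9% in wild type naive libraries. Socs2 was the main transcript before exposure. It held 2.58 to 5.19% of the sum in ICAM-1 null exposed and 50.4 to 61.2% in ICAM-1 null naive libraries, and 3.68 to 5.91% in wild type exposed and 46.9 to 50.8% in wild type naive libraries. The ratio of Cish to Socs2 TPM had a median of 2.75 in ICAM-1 null exposed and 0.48 in ICAM-1 null naive libraries, and of 3.52 in wild type exposed and 0.76 in wild type naive libraries. The ratio of Socs3 to Stat3 TPM had a median of 8.26 in ICAM-1 null exposed and 0.17 in ICAM-1 null naive libraries, and of 7.05 in wild type exposed and 0.14 in wild type naive libraries. Shares and ratios are given as descriptions, with no test.

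**Figure D2:**
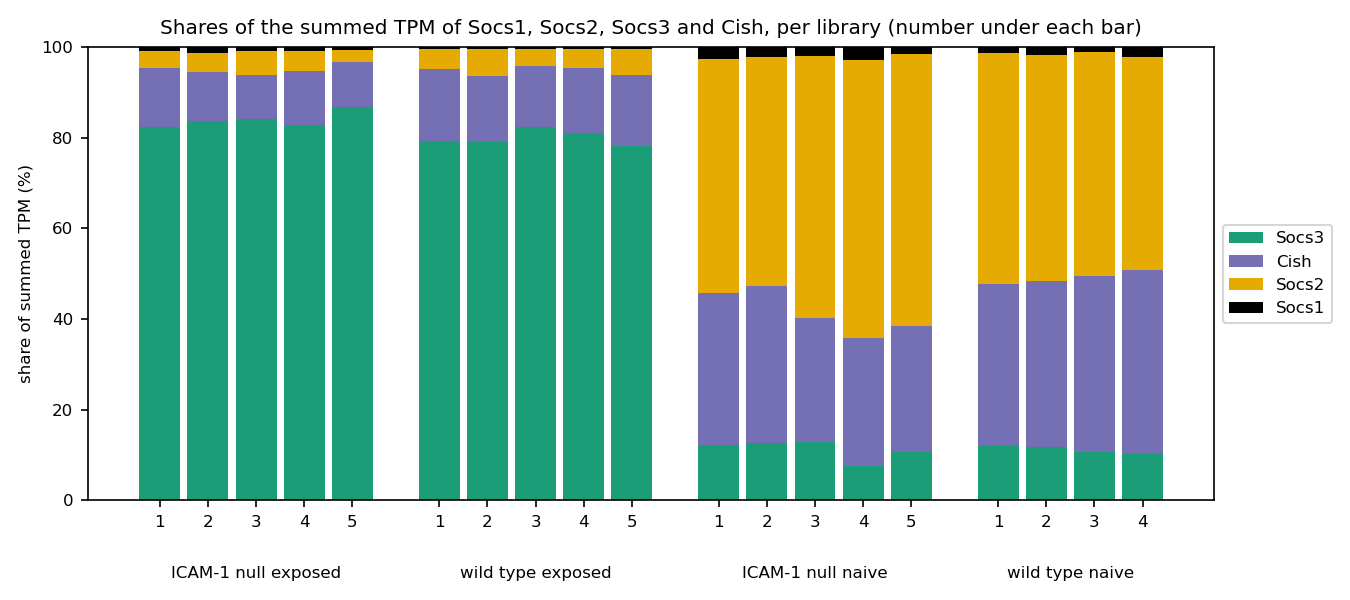
Share of the summed TPM of Socs3, Cish, Socs2 and Socs1 in each library, as stacked bars in percent, with the library number under each bar and groups side by side. Socs3 takes 78.2 to 86.7% in the 10 exposed libraries and 7.56 to 12.8% in the 9 naive libraries, where Socs2 takes the largest share.

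The kinases at the receptor changed by unequal amounts. Jak2 (ENSMUSG00000024789.14, chromosome 19, 29229228 to 29290480, plus strand), which serves GM-CSF and other beta-chain receptors, stood at 84.0, 70.9, 32.8, 55.8 and 65.6 TPM in ICAM-1 null exposed and 19.01, 15.7, 15.1, 18.5 and 16.2 TPM in ICAM-1 null naive libraries. Wild type exposed libraries held 72.1, 60.0, 51.1, 67.2 and 43.9 TPM, against 16.6, 17.3, 15.5 and 14.7 TPM in wild type naive libraries. Every exposed library was above every naive library. ICAM-1 null exposed library 3 was the lowest of the exposed libraries, and the spread among exposed mice (SD 19.1 TPM in ICAM-1 null, 11.5 TPM in wild type) was wide beside that among naive mice (1.77 and 1.14 TPM). In log2 units Jak2 rose by 2.22 (SE 0.18, adjusted p = 2.14e-09) in ICAM-1 null and 2.27 (SE 0.20, adjusted p = 8.9e-09) in wild type mice.

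Jak1 (ENSMUSG00000028530.15, chromosome 4, 101009564 to 101122479, minus strand), the kinase of the interleukin-6, interleukin-10 and interferon receptors, moved less. It measured 68.0, 62.4, 53.0, 55.0 and 57.9 TPM in ICAM-1 null exposed and 46.9, 46.5, 36.8, 43.7 and 50.8 TPM in ICAM-1 null naive libraries. For wild type they were 51.7, 55.1, 71.6, 55.4 and 51.0 TPM after exposure and 49.4, 49.8, 40.5 and 45.6 TPM in naive libraries. Exposed libraries were above naive ones within each genotype, by narrow margins on this scale. In log2 units Jak1 rose by 0.73 (SE 0.08, adjusted p = 2.78e-07) in ICAM-1 null and 0.67 (SE 0.09, adjusted p = 2.93e-06) in wild type mice. The same change was 0.39 and 0.29 on the log2(TPM + 1) scale (limma, adjusted p = 0.00166 and 0.0231). The ratio of Jak2 to Jak1 TPM had a median of 1.13 in ICAM-1 null exposed and 0.41 in ICAM-1 null naive libraries, and of 1.09 in wild type exposed and 0.34 in wild type naive libraries, so that levels of the 2 kinases overlapped after exposure and did not before it.

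Stat3 (ENSMUSG00000004040.17, chromosome 11, 100775924 to 100830366, minus strand), the transcription factor itself, changed little. ICAM-1 null exposed libraries held 71.3, 77.1, 54.5, 57.9 and 66.6 TPM, against 81.2, 71.4, 65.5, 63.3 and 71.9 TPM in ICAM-1 null naive libraries. The wild type values were 76.8, 88.6, 91.7, 73.1 and 64.4 TPM after exposure and 93.9, 87.8, 83.5 and 86.2 TPM in naive mice. Exposed and naive libraries overlapped in both genotypes. In TMM-scaled CPM Stat3 averaged 172 ± 20.5 in ICAM-1 null exposed and 139 ± 13.0 in ICAM-1 null naive libraries, and 199 ± 16.4 in wild type exposed and 168 ± 8.14 in wild type naive libraries (SD). On that scale it rose by 0.30 in log2 units (SE 0.08, adjusted p = 0.0042) in ICAM-1 null and 0.25 (SE 0.09, adjusted p = 0.0271) in wild type mice, but the sign turned on the log2(TPM + 1) scale, to -0.11 and -0.16 (limma, adjusted p = 0.337 and 0.192). The wild type edgeR call was also lost when wild type exposed library 1, 2 or 3 was left out (0.23, 0.23 and 0.22, adjusted p = 0.0588, 0.0537 and 0.0618), and when wild type naive library 2, 3 or 4 was left out (0.24, 0.23 and 0.23, adjusted p = 0.06, 0.0687 and 0.0698). Without wild type naive libraries 1, 2 and 3 together it was 0.28 (adjusted p = 0.246).

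Pim1 (ENSMUSG00000024014.9, chromosome 17, 29709727 to 29715086, plus strand), a survival kinase and a target of STAT3 and STAT5, was the most abundant of the 9 genes in every group. It stood at 964, 909, 748, 787 and 858 TPM in ICAM-1 null exposed and 181, 163, 127, 127 and 116 TPM in ICAM-1 null naive libraries. Wild type exposed libraries held 840, 680, 860, 891 and 894 TPM, against 151, 163, 161 and 119 TPM in wild type naive libraries. The lowest exposed library, wild type exposed 2, was well above the highest naive library. On the log2 scale Pim1 rose by 2.96 (SE 0.13, 7.76-fold, adjusted p = 1.34e-13) in ICAM-1 null and 2.91 (SE 0.15, 7.52-fold, adjusted p = 1.01e-12) in wild type mice.

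Pim3 (ENSMUSG00000035828.12, chromosome 15, 88746389 to 88749929, plus strand), a related kinase, stood well below Pim1 in every library. Its level was 74.0, 96.4, 61.9, 73.4 and 99.7 TPM in ICAM-1 null exposed and 12.0, 14.4, 16.3, 18.1 and 18.8 TPM in ICAM-1 null naive libraries. The wild type values were 55.8, 56.1, 71.2, 72.9 and 92.0 TPM after exposure and 18.5, 11.7, 16.5 and 17.0 TPM in naive libraries. Exposed and naive libraries did not overlap, and the exposed groups overlapped each other. The rise of Pim3 in log2 units was 2.70 (SE 0.18, adjusted p = 7.57e-11) in ICAM-1 null and 2.51 (SE 0.20, adjusted p = 1.31e-09) in wild type mice. Its share of the summed TPM of Pim1 and Pim3 was 7.13 to 10.4% in ICAM-1 null exposed and 6.21 to 13.96% in ICAM-1 null naive libraries, and 6.23 to 9.34% in wild type exposed and 6.71 to 12.5% in wild type naive libraries, ranges that overlap throughout.

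**Figure D3:**
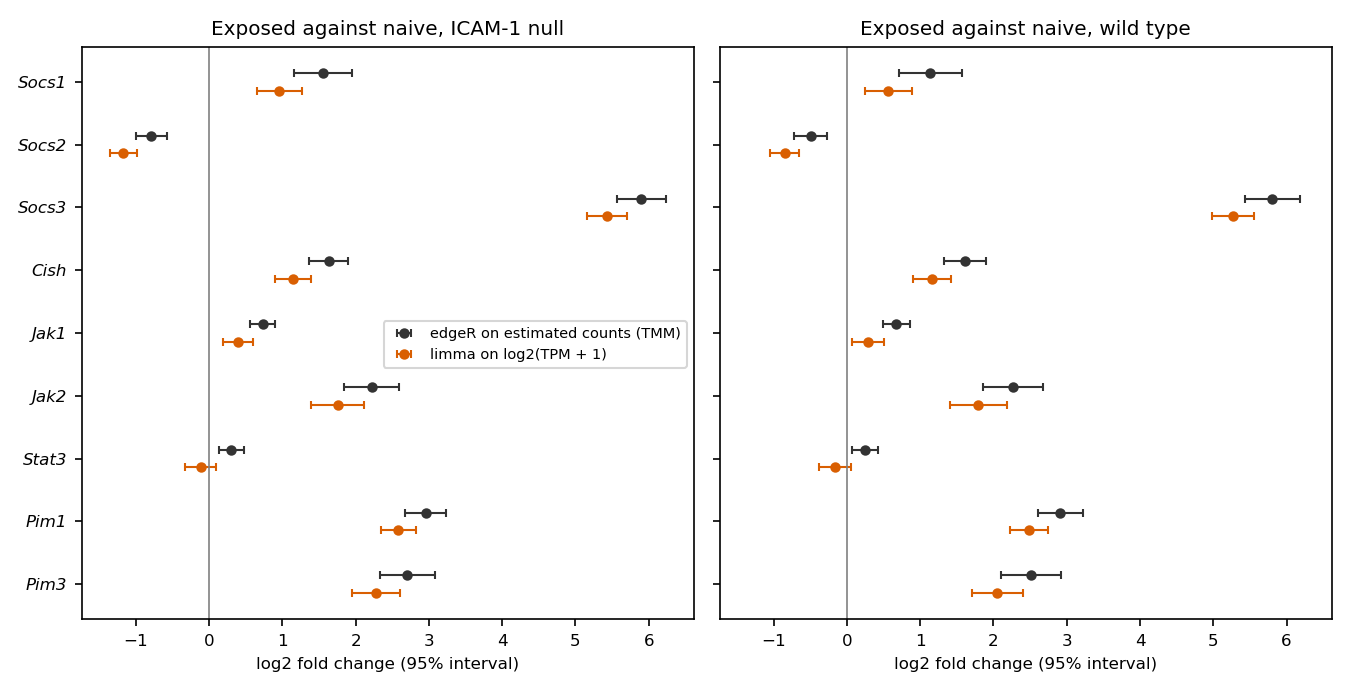
Log2 fold change on exposure of the 9 genes in ICAM-1 null (left) and wild type mice (right), with 95% intervals, from edgeR on estimated counts (black) and limma on log2(TPM + 1) (orange). Socs3 lies near 5.90 and 5.81 on the count scale, the orange points lie to the left of the black ones, and Stat3 is the gene whose sign differs between the scales.

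In order of mean TPM, the naive groups of both genotypes ran Pim1, Stat3, Socs2, Jak1, Cish, Jak2, Pim3, Socs3 and Socs1. Neighbours whose libraries overlapped in both naive groups were Jak2 with Pim3 and Pim3 with Socs3, joined in ICAM-1 null naive libraries by Stat3 with Socs2 and Socs2 with Jak1, and in wild type naive libraries by Jak1 with Cish. After exposure Socs3 stood second in both genotypes, at 533 ± 104 TPM in ICAM-1 null and 528 ± 78.8 TPM in wild type mice, and apart from both its neighbours. Pim3, Cish, Stat3, Jak2 and Jak1 then formed a middle group between 59.3 and 81.1 TPM in ICAM-1 null and between 57.0 and 97.0 TPM in wild type mice, with each neighbour in the order overlapping the next. Socs2 and Socs1 were the lowest, apart from each other and from the middle group.

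Between genotypes, 2 of the 9 genes differed after exposure and 0 of 9 in naive mice by edgeR. In naive mice 2 of the 9, Cish and Stat3, had an unadjusted p under 0.05 in edgeR, as did 3542 of all 20501 genes tested. DESeq2 and limma on log2(TPM + 1) each called 1 of the 9, Cish. Among all genes tested in exposed mice, 4.43% were higher and 4.04% lower in ICAM-1 null than in wild type mice. In naive mice 4.31% were higher and 2.55% lower. The genotype comparisons use the same groups as the exposure comparisons above, so they are not independent of them.

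After exposure Socs1 was higher in ICAM-1 null mice, at 5.53 ± 0.94 TPM against 3.18 ± 0.42 TPM in wild type mice (SD, n = 5 each), with no overlap between the libraries listed above. The log2 difference was 0.83 (SE 0.19, 1.78-fold, edgeR adjusted p = 0.00625), and it passed in all 29 alternatives run, at 0.64 to 0.89 (adjusted p = 0.000338 to 0.0246). Naive libraries overlapped, at 2.37 ± 0.54 TPM in ICAM-1 null and 1.85 ± 0.57 TPM in wild type mice, with a log2 difference of 0.42 (95% interval -0.01 to 0.84, edgeR adjusted p = 0.304). That naive difference rested on wild type naive libraries 1, 2 and 3: without them it was -0.07, and without wild type naive library 4, 0.65.

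Cish was lower in ICAM-1 null mice after exposure, at 70.5 ± 12.6 TPM against 97.0 ± 8.33 TPM in wild type mice (SD, n = 5 each). These exposed libraries did not overlap in TPM. In TMM-scaled CPM they did, at 112 to 186 in ICAM-1 null and 182 to 227 in wild type mice. The log2 difference was -0.42 (SE 0.13, edgeR adjusted p = 0.0396). This call was lost without ICAM-1 null exposed library 2, 3 or 4 (-0.39, -0.32 and -0.41, adjusted p = 0.0915, 0.105 and 0.078) and without wild type exposed library 1, 3 or 4 (-0.38, -0.41 and -0.39, adjusted p = 0.0934, 0.0753 and 0.0874). It was also lost with no filter on low counts (adjusted p = 0.0725), in a fit of the 2 exposed groups alone (0.0562) and without wild type naive libraries 1, 2 and 3 (0.0521). In naive mice Cish stood at 31.1 ± 4.39 TPM in ICAM-1 null (n = 5) and 43.1 ± 5.47 TPM in wild type libraries (n = 4). These naive libraries did not overlap in TPM but did in TMM-scaled CPM. That log2 difference of -0.44 (SE 0.13) missed the threshold in edgeR (adjusted p = 0.0505) and passed it in DESeq2 (adjusted p = 0.0227), and over all 29 alternatives its adjusted p ran between 0.0209 and 0.353.

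Of the other genes, Stat3 was the one whose ICAM-1 null naive libraries (70.7 ± 6.96 TPM, n = 5) all lay below the wild type naive libraries (87.9 ± 4.403 TPM, n = 4). Its log2 differences were -0.21 in exposed mice (95% interval -0.38 to -0.04, edgeR adjusted p = 0.133) and -0.27 in naive mice (-0.45 to -0.09, edgeR adjusted p = 0.0709), neither past the threshold in edgeR, and they passed in 2 and 5 of the 29 alternatives. Socs2 in exposed mice was at -0.21 (-0.42 to -0.00, edgeR adjusted p = 0.25), with overlapping libraries, and passed in 2 of the 29 alternatives. For Socs3 the interval of the genotype difference was -0.22 to 0.33 after exposure and -0.34 to 0.27 in naive mice. The corresponding intervals were -0.20 to 0.32 and -0.26 to 0.30 for Pim1, -0.10 to 0.60 and -0.32 to 0.44 for Pim3, -0.26 to 0.46 and -0.24 to 0.54 for Jak2, and -0.08 to 0.26 and -0.15 to 0.21 for Jak1.

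The interaction asks whether the exposure response itself differed between genotypes, as the log2 response in the null line less that in wild type. It was called for 0 of the 9 genes by edgeR and in every alternative run. Of the 9, 0 had an unadjusted p under 0.05 in edgeR, where 2019 of all 20501 genes tested did. Over all genes tested 0.18% were called higher and 0.151% lower. The largest values were 0.41 for Socs1 (95% interval -0.16 to 0.99, edgeR adjusted p = 0.675) and -0.29 for Socs2 (-0.59 to 0.01, edgeR adjusted p = 0.533). The Socs1 value was 0.19 without wild type naive library 4 and 0.91 without wild type naive libraries 1, 2 and 3, and uncalled in both. For Socs3 the interval was -0.31 to 0.50 and for Pim1 -0.33 to 0.43. The Socs1 difference between exposed groups is therefore not shown to be a difference in response.

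**Figure D4:**
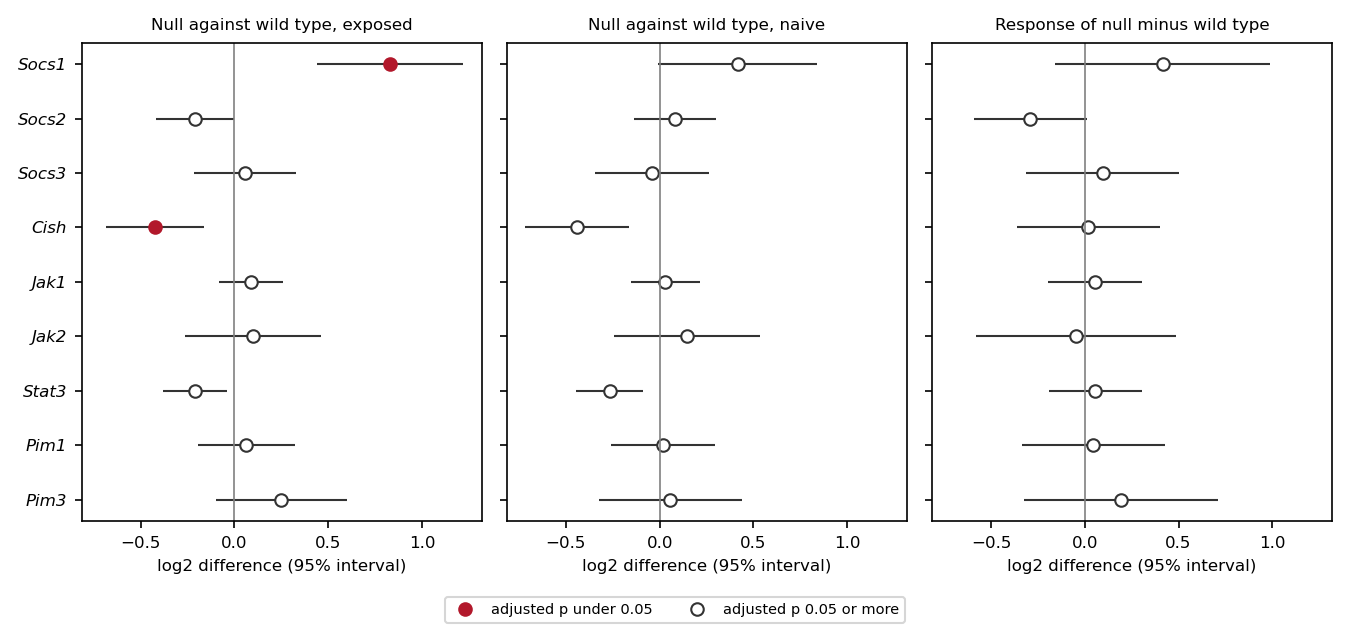
Log2 difference between ICAM-1 null and wild type mice after exposure (left) and in naive mice (middle), and the response in the null line less that in wild type (right), with 95% intervals from edgeR. Filled points passed an adjusted p under 0.05, and these are Socs1 at 0.83 and Cish at -0.42 in exposed mice.

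Libraries differed in other RNA that moved with exposure or genotype. Summed epithelial markers (18 genes) were at 1237 to 1888 TPM in ICAM-1 null exposed and 1181 to 1311 TPM in ICAM-1 null naive libraries. For wild type they were at 1918 to 4061 TPM after exposure and 1249 to 1613 TPM in naive libraries. By mean TPM, Scgb1a1 led this list in exposed and Krt19 in naive libraries of both genotypes. Mean TPM of Scgb1a1 was higher, and that of Krt19 lower, in exposed than in naive libraries of both genotypes. Erythroid and platelet markers (9 genes, led by Hba-a1, Hba-a2 and Hbb-bs) summed to 133 to 353 TPM in ICAM-1 null exposed and 100.5 to 355 TPM in ICAM-1 null naive libraries. For wild type they summed to 372 to 2401 TPM after exposure and 138 to 413 TPM in naive libraries. Neutrophil markers (14 genes, with Elane at 0 in all 19 libraries and Camp and Ngp at 0 in 17 each) summed to 126 to 189 TPM in ICAM-1 null exposed and 170 to 185 TPM in ICAM-1 null naive libraries, and to 86.2 to 118 TPM in wild type exposed and 66.99 to 94.1 TPM in wild type naive libraries. Csf3r led this list by mean TPM in all groups but wild type exposed, where Ltf did (34.7 TPM). It averaged 54.7 TPM in ICAM-1 null exposed and 16.3 TPM in wild type exposed libraries. In naive libraries Csf3r averaged 99.0 TPM in ICAM-1 null and 31.6 TPM in wild type mice. S100a8 averaged 38.2 and 17.9 TPM in exposed and 29.7 and 11.9 TPM in naive libraries of the same 2 genotypes. S100a9 went the other way after exposure, at 2.89 and 8.25 TPM. T and NK cell markers (13 genes) summed to 578 to 675 TPM in ICAM-1 null exposed and 827 to 991 TPM in wild type exposed libraries. In naive libraries they summed to 650 to 787 TPM in ICAM-1 null and 909 to 1121 TPM in wild type mice. Cd2 had the widest gap in mean TPM between genotypes, at 163.4 in ICAM-1 null exposed and 316.5 in wild type exposed libraries. In naive libraries it averaged 236 and 495.7 TPM. Gzmb, the most abundant in both ICAM-1 null groups, averaged 234.1 and 277.6 TPM in exposed and 257.9 and 249.5 TPM in naive libraries of the same 2 genotypes. On exposure 21.4% of all genes tested rose in ICAM-1 null and 20.1% in wild type mice (edgeR). Of the 17 alveolar macrophage markers, 7 rose and 2 fell in ICAM-1 null and 12 rose and 4 fell in wild type mice. Of the 7 erythroid and platelet markers tested, 0 rose in ICAM-1 null and 5 in wild type mice. Of the 18 epithelial markers 12 and 14 rose. Of the T and NK cell markers tested, 5 of 12 rose in ICAM-1 null and 9 of 12 in wild type mice, although their summed TPM was not higher after exposure. Of the monocyte and interstitial macrophage markers, 4 of 12 rose in ICAM-1 null and 8 of 12 in wild type mice. For dendritic cell markers the counts were 5 of 8 and 4 of 8, and for neutrophil markers tested 3 of 9 and 4 of 9. In these other lists, 1 epithelial, 1 monocyte and 1 neutrophil marker fell in ICAM-1 null mice. In wild type mice 1 T and NK cell and 1 neutrophil marker fell. A marker near 0 in naive libraries can pass the filter through exposed libraries alone, and can then hardly be seen to fall. The summed dendritic cell markers were at 15.8 to 30.4 TPM in ICAM-1 null exposed and 9.05 to 14.4 TPM in ICAM-1 null naive libraries, and at 23.9 to 41.1 TPM in wild type exposed and 8.12 to 17.3 TPM in wild type naive libraries. The part of these cells in the exposure and genotype results was not tested, and in bulk pellets fewer cells of a type and less RNA per cell cannot be told apart.

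The genes most like each of the 9 over the 19 libraries were found among 11522 genes as the smallest root mean square difference of centred log2(TPM + 1) values. Socs3 was nearest to Nfkbid (0.28) and Gadd45b (0.30), set against its own spread of 2.68. Gadd45b averaged 1421 TPM in ICAM-1 null exposed and 27.8 TPM in ICAM-1 null naive libraries. Pim1 was nearest to Tnfaip2 (0.14) and Rab11fip1 (0.18), with an own spread of 1.28, and Pim3 to Sod2 and Icosl (0.23 each, own spread 1.11). Jak2 was nearest to Orai2 (0.21) and Map2k3 (0.22), with an own spread of 0.93, and Cish to Stk38l and Hivep2 (0.19 each, own spread 0.66). Socs1 was nearest to Rbm7 (0.19) and Rnf2 (0.21), with an own spread of 0.49, and Socs2 to Dnajc16 and Rbbp5 (0.11 each, own spread 0.53). For Jak1 (Dnaja2 and Alkbh5, 0.09 each) and Stat3 (Rngtt, 0.09, and Eml4, 0.12) the own spreads were 0.23 and 0.22, so that these pairs rest on small movements. Likeness is a description over libraries that share exposure as their main difference.

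The rest of the pathway was read from lists of ligands, receptor chains, other family members, inhibitors, targets and substrates. Their counts stand beside the 21.4% of all genes that rose and 23.4% that fell in ICAM-1 null mice, and the 20.1% and 20.2% in wild type mice. Of 31 cytokine ligands that signal through JAKs, 18 passed the filter. A gene near 0 in naive libraries can pass through its exposed libraries alone, and can then hardly be seen to fall. Csf3, for example, averaged 0.11 TPM in ICAM-1 null naive and 0.09 TPM in wild type naive libraries. The counts and medians of this list therefore lean towards rises. In ICAM-1 null mice 12 rose, 1 fell and 5 did not pass, with a median log2 fold change of 2.53 beside 0.02 for all genes. In wild type mice 10 rose, 1 fell and 7 did not pass, with a median of 2.97 beside 0.02. Il6, whose product signals through gp130, JAK1 and STAT3, stood at 78.1 ± 26.9 TPM in ICAM-1 null exposed and 0.31 ± 0.29 TPM in ICAM-1 null naive libraries, and at 38.7 ± 6.83 TPM in wild type exposed and 0.52 ± 0.29 TPM in wild type naive libraries (SD). Osm, encoding the gp130 ligand oncostatin M, stood at 38.8 ± 4.95 TPM in ICAM-1 null exposed and 9.34 ± 2.02 TPM in ICAM-1 null naive libraries, and at 194 ± 50.5 TPM in wild type exposed and 15.7 ± 2.59 TPM in wild type naive libraries. Its response was smaller in ICAM-1 null mice, with an interaction of -1.61 (edgeR adjusted p = 0.00218). Lif was also lower in ICAM-1 null than in wild type mice after exposure (log2 difference -2.005, edgeR adjusted p = 1.19e-06), and Csf3, which encodes G-CSF, was higher (1.56, adjusted p = 8.31e-05).

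Among 33 receptor chains tested of 35 listed, 18 rose, 6 fell and 9 did not pass in ICAM-1 null mice, and 14 rose, 3 fell and 16 did not pass in wild type mice, with medians of 0.59 and 0.50. On the log2(TPM + 1) scale, where 28 were tested, 9 rose and 9 fell in ICAM-1 null mice (median 0.10) and 9 rose and 13 fell in wild type mice (median -0.18), so the balance depended on the scaling. Csf2rb, the shared beta chain of the GM-CSF, interleukin-3 and interleukin-5 receptors, rose by a log2 fold change of 1.17 in ICAM-1 null and 1.27 in wild type mice (edgeR adjusted p = 9.77e-11 and 1.13e-10). Its near-identical copy Csf2rb2, with which it may share reads, rose by 1.25 and 1.26 (adjusted p = 7.84e-10 and 3.18e-09). Il2rg, the common gamma chain that pairs with JAK3, rose by 1.04 and 1.02, and Il10rb by 0.72 and 0.75. Both receptor genes that define interleukin-6 signalling fell on the count scale, Il6ra by 0.69 in ICAM-1 null and 0.85 in wild type mice and Il6st by 0.22 and 0.18 on the log2 scale. They were named after their values were seen. Csf3r, the G-CSF receptor and also one of the neutrophil markers, was higher in ICAM-1 null than in wild type mice, by 1.78 after exposure and 1.73 in naive mice (edgeR adjusted p = 5.61e-13 and 3.3e-12). Crlf2, the TSLP receptor chain, was lower, at -0.80 and -1.02 (adjusted p = 4.34e-08 and 2.38e-09).

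Family members outside the 9 went both ways. Of 13 tested, 5 rose, 5 fell and 3 did not pass in ICAM-1 null mice, and 5 rose, 3 fell and 5 did not pass in wild type mice. On the log2(TPM + 1) scale 4 rose and 6 fell in ICAM-1 null mice, and 3 rose and 6 fell in wild type mice. Socs7 rose by 0.89 in ICAM-1 null and 0.85 in wild type mice (edgeR adjusted p = 7.34e-08 and 5.48e-07), Stat5a by 1.19 and 0.95 (adjusted p = 3.94e-06 and 0.000167) and Stat6 by 0.55 and 0.49 (adjusted p = 1.48e-07 and 2.44e-06). Tyk2, a JAK, fell by 0.48 and by 0.35 on the log2 scale. Between genotypes, the JAK genes Tyk2 and Jak3 were lower in ICAM-1 null mice, Tyk2 at -0.41 after exposure and -0.27 in naive mice (edgeR adjusted p = 0.000171 and 0.0125) and Jak3 at -0.47 and -0.45 (adjusted p = 0.000186 and 0.000667), where Jak1 and Jak2 did not pass.

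Of 15 genes listed as other inhibitors of the pathway, 6 rose and 4 fell in ICAM-1 null mice (median -0.01). In wild type mice 8 rose and 3 fell (median 0.26). The list also holds Sh2b1 and Dusp1, which are not dedicated inhibitors of JAKs or STATs. Sh2b1 is among those that fell in wild type mice (-0.68, edgeR adjusted p = 2.08e-06). On the log2(TPM + 1) scale 5 rose and 8 fell in ICAM-1 null mice (median -0.33), and 4 rose and 7 fell in wild type mice (median -0.15). Ptpn2, a phosphatase of JAK1, JAK3 and STATs, rose by a log2 fold change of 1.21 in ICAM-1 null and 1.22 in wild type mice (edgeR adjusted p = 3.35e-10 and 1.38e-09). Pias3, encoding an inhibitor of STAT3, fell to 3.75 ± 0.82 TPM in ICAM-1 null exposed libraries, against 14.6 ± 1.39 TPM in ICAM-1 null naive libraries (log2 fold change -1.54, adjusted p = 4.04e-09). For wild type Pias3 stood at 4.195 ± 1.41 TPM after exposure and 17.0 ± 1.12 TPM in naive libraries (-1.64, adjusted p = 4.57e-09). Of 8 genes listed with the ubiquitin ligase that the SOCS box recruits, 2 rose and 6 did not pass in each genotype. That share (2 of 8) is near that of all genes. Ube2f and Nedd8 are in the list but do not encode subunits of the ligase. On the log2(TPM + 1) scale 1 rose and 5 fell in ICAM-1 null mice, and 1 rose and 4 fell in wild type mice. The 2 called by edgeR were Ube2f, at 1.12 in ICAM-1 null and 0.96 in wild type mice, and Eloc, at 0.35 and 0.25, the second of which turned sign on the log2(TPM + 1) scale in wild type mice.

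Most of the STAT targets rose. Of 24 STAT3 target genes outside the 9, 15 rose, 3 fell and 6 did not pass in ICAM-1 null mice (median 1.03), and 19 rose, 3 fell and 2 did not pass in wild type mice (median 1.29). The AP-1 gene Junb was up by 4.22 on the log2 scale in ICAM-1 null and 4.08 in wild type mice (edgeR adjusted p = 3.77e-17 and 3.02e-16), and Il1rn, the interleukin-1 receptor antagonist, by 3.86 and 3.34 (adjusted p = 1.74e-16 and 7.73e-15). Several of these genes, Tnfaip3, Irf1 and Zfp36 among them, are also targets of other pathways. The 3 that fell in each genotype were Myc, Fos and Cebpd, named after their values were seen. Irf1 was the gene of this list with an interaction (0.93, edgeR adjusted p = 0.0405). Of 14 STAT5 targets, which overlap with the other lists, 9 rose, 2 fell and 3 did not pass in ICAM-1 null mice, and 10 rose, 2 fell and 2 did not pass in wild type mice. Ccl22, a chemokine, rose by 2.997 in ICAM-1 null and 4.035 in wild type mice (adjusted p = 1.12e-13 and 1.43e-14), with an interaction of -1.04 (adjusted p = 0.0138).

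More of the genes for PIM kinase substrates fell than rose. Of 16 tested, 5 rose, 9 fell and 2 did not pass in each genotype, with medians of -0.39 in both beside 0.02 for all genes. Cdkn1a, the cell cycle inhibitor p21, rose by a log2 fold change of 2.07 in ICAM-1 null and 2.08 in wild type mice (edgeR adjusted p = 1.38e-12 and 7.14e-12), and the NF-kB subunit Rela by 2.05 and 1.79 (adjusted p = 4.53e-15 and 2.06e-13). Cdc25a, a phosphatase that drives the cell cycle, fell by 1.22 and by 1.01 (adjusted p = 4.4e-08 and 1.66e-06). PIM kinases act on the proteins, which were not measured.

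**Figure D5:**
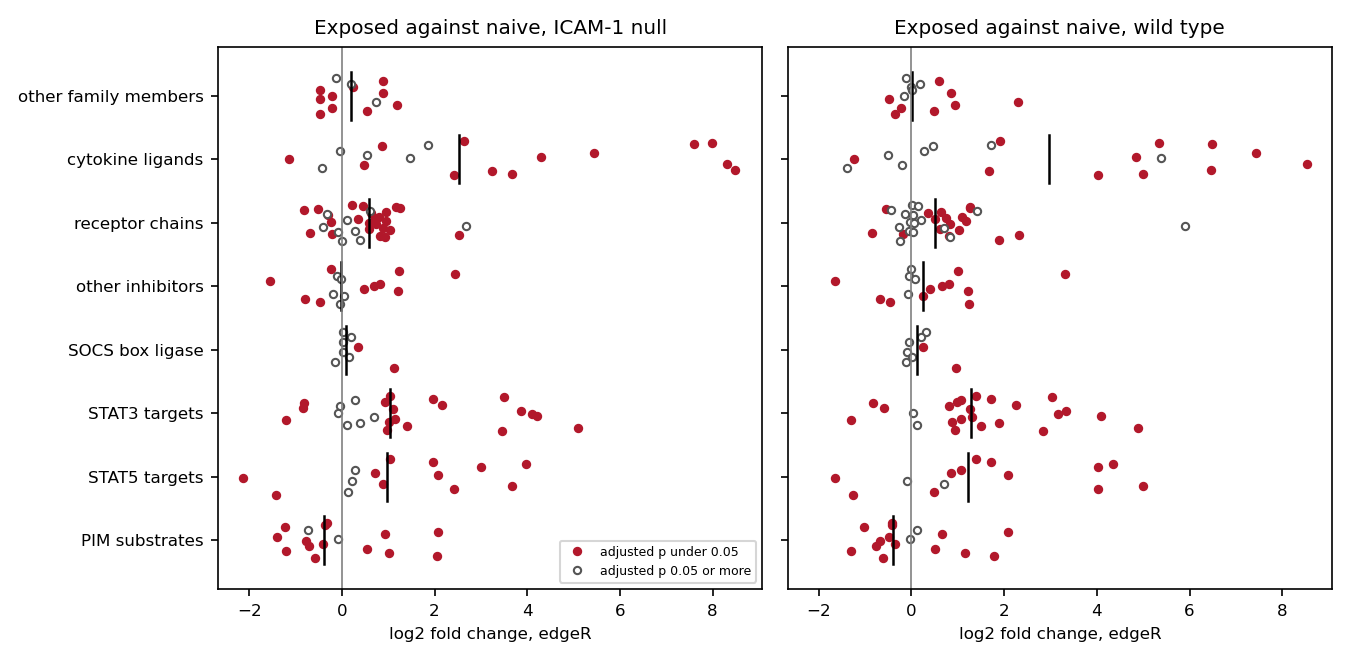
Log2 fold change on exposure (edgeR) of the genes of 8 pathway lists in ICAM-1 null (left) and wild type mice (right). Each point is a gene, filled where the adjusted p was under 0.05, and the black line is the list's median. Cytokine ligands have the highest medians (2.53 and 2.97), STAT3 targets follow at 1.03 and 1.29, and PIM substrates lie at -0.39 in both. Ligands near 0 in naive libraries could hardly be seen to fall.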

How the data were processed

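Poly(A) RNA of 19 lavage-cell pellets was read from both ends for 150 bases at a planned depth of 20 M reads, per the labels' protocols. The authors deposited estimated counts, whole numbers not scaled for depth, and TPM, which they scaled to a fixed sum. STAR, StringTie version 2 and the build GRCm39 appear in the submitters' processing notes. How strand was treated in counting is not stated there, so genes that overlap, antisense ones included, may share reads. Totals exceed the planned reads, and 1 fragment was assumed to be worth 4 counts in one alternative.

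Groups follow the sample titles. The counts were tested with edgeR 4.0.16 (R 4.3.3) by its two-sided quasi-likelihood F test, all 19 libraries in 1 fit, TMM scaling and filterByExpr (minimum count 10, total 15), with Benjamini-Hochberg adjustment over 20501 genes and 5 comparisons made. Alternatives used DESeq2 1.42.0, limma 3.58.1 on log2(TPM + 1) or log2(TPM + 0.1) of genes with at least 1 TPM in 4 libraries, other scaling, filters and sample sets, a replicate block, and each library left out in turn. The code was tested on simulated counts. Libraries of 1 group differed by at least 3.7 in chi-square per gene on counts divided by 4, so each was kept as a replicate. The labels do not describe shared litters or days. The p-values set a difference between groups against the spread between libraries of 1 mouse each. Values after ± are SDs. Depth limits precision for counting error only.

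The 9 genes, the lists and the naming rule (from each list up to 4 genes of smallest adjusted p per exposure comparison and up to 3 called per genotype or interaction comparison, fewer in the text) were chosen with earlier results of these data known.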

Additional observations from a re-analysis of the deposited data

Results flagged for a closer look

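Within groups of 4 or 5 libraries, 5 of 36 combinations of gene and group held a library far from the rest, by the gap to its nearest neighbour over the whole range of the group (Dixon's test), where chance alone flags about 5% of groups. Socs3 was 713.8 TPM in ICAM-1 null exposed library 5, the highest of its group. Socs1 was 7.161 TPM in ICAM-1 null exposed library 2, also the highest. Pim1 was 679.6 TPM in wild type exposed library 2, the lowest of its group. Jak1 was 71.61 TPM in wild type exposed library 3, and Socs2 was 61.74 TPM in wild type naive library 3, each the highest of its group. Without ICAM-1 null exposed library 2, the Socs1 difference between exposed genotypes still passed.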

How the results depend on the processing

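Each result was recomputed under 10 other settings and with each of the 19 libraries left out. The exposure calls of Socs2, Socs3, Cish, Jak1, Jak2, Pim1 and Pim3 kept their direction and passed in both genotypes in all 29 alternatives, as did Socs1 in ICAM-1 null mice and Socs1 between exposed genotypes. Stat3 turned sign on exposure on the log2(TPM + 1) scale (-0.114 in ICAM-1 null, -0.163 in wild type, the same without a filter) and on log2(TPM + 0.1) (-0.116 and -0.165). On these scales all genes shift, and with log2(TPM + 1) 20.0% of called genes were higher in ICAM-1 null and 19.1% in wild type mice, against 47.8% and 49.9% in edgeR.

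Genes of the 9 called between naive genotypes were 0 in edgeR, 1 with RLE scaling, DESeq2, limma with either pseudocount and the replicate block, and 2 with counts divided by 4 or only the 2 groups compared (0 to 2 with a library left out). Between exposed genotypes they were 2, and 1 with no filter, only the 2 groups compared or without wild type naive libraries 1, 2 and 3, but 3 with limma on log2(TPM + 1) or log2(TPM + 0.1), where Socs2 also passed (1 to 2 with a library left out). With a library left out, 8 to 9 were called in wild type exposure, 9 in ICAM-1 null exposure and 0 in the interaction.

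Over all genes, the interaction called 68 genes, 260 in DESeq2, 38 with no filter, 108 with limma on log2(TPM + 1) and 34 to 82 with a library left out. With a library left out, calls were 7393 to 8355 in wild type exposure, 8439 to 9290 in ICAM-1 null exposure, 1072 to 1499 between naive and 1441 to 1709 between exposed genotypes. Leaving out the 3 shallow wild type naive libraries (1, 2 and 3), so that the lone one is assumed to vary like the other groups, 4253 genes were called in wild type exposure, 321 between naive genotypes and 10 in the interaction. The cause was not tested.

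Some differences that did not pass changed sign. Without those 3 libraries the naive genotype difference of Socs1, 0.42 in edgeR with all libraries, was -0.074. The others were near 0 with all libraries. Without the 3 libraries the naive genotype difference was 0.168 for Socs3 and -0.035 for Pim3, and the interaction was -0.106 for Socs3 and -0.276 for Pim1. With limma the naive difference was -0.045 or -0.046 for Jak1 and -0.063 or -0.064 for Pim1, and the Cish interaction -0.01 or -0.004. With a library left out, naive differences spanned -0.099 to 0.077 (Socs3), -0.017 to 0.081 (Jak1), -0.073 to 0.097 (Pim1) and -0.059 to 0.146 (Pim3). Exposed differences spanned -0.076 to 0.119 (Socs3), -0.028 to 0.268 (Jak2) and -0.016 to 0.123 (Pim1). Interactions spanned -0.037 to 0.16 (Socs3), -0.06 to 0.114 (Cish), 0 to 0.107 (Stat3), -0.175 to 0.116 (Jak2) and -0.033 to 0.14 (Pim1).

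Replicate numbers did not visibly pair the mice, and a shared litter or day was not tested otherwise. Over 27 same-numbered pairs the correlation of deviations was -0.048 to 0.073, 0 were over 0.1, and 6 were the best match. The replicate block left 7808 genes called in wild type exposure and 52 in the interaction. With it Cish between exposed genotypes no longer passed (-0.428, adjusted p = 0.0595), Stat3 passed between exposed (-0.213, adjusted p = 0.0494) and naive genotypes (-0.256, adjusted p = 0.0313), and the naive difference of Pim3 was -0.038. Low counts limit Socs1 in naive libraries.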
